A study of Mus musculus with 4 samples.

Results

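The genes examined were the ligand TGF-beta 1 (Tgfb1), its processing protease (Furin), the type I and type II receptors (Tgfbr1, Tgfbr2), the SMAD proteins Smad2, Smad3, Smad4 and Smad7, and the SMAD repressors Ski and Skil. They were chosen by name, as the rows of the deposited count table that carry these 10 symbols, out of 22554 genes. RNA was sequenced from group 2 innate lymphoid cells (ILC2s), sorted from the lungs of BALB/c mice that were 6 weeks old. After isolation the cells of both groups received IL-2, IL-7 and IL-33 overnight, together with vehicle in 2 libraries and with compound 5D in the other 2. Compound 5D inhibits the Orai channels, which let calcium into the cell after the stores of the endoplasmic reticulum have been drained. The labels do not say how many mice or cultures stand behind a library, so p-values measure the spread between these samples, which may be technical. The libraries held 20096555 to 28697265 counts, and those with the same treatment differed beyond counting noise. Levels are normalized CPM, the counts of a gene scaled to a common library total by the upper quartile, and fold changes come from edgeR's quasi-likelihood test over 17650 genes.

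TGF-beta 1 is made as a precursor that furin cuts, after which the mature dimer stays bound to its propeptide until integrins or proteases release it. The free ligand binds the type II receptor, which phosphorylates the type I receptor, and this in turn phosphorylates Smad2 and Smad3. These join Smad4 and enter the nucleus, where Ski and Skil (SnoN) hold their target genes in check, while Smad7 blocks the receptor as a feedback inhibitor. In the lung, TGF-beta is known for its part in airway remodelling, in T helper differentiation and in the maintenance of tissue-resident lymphocytes, ILC2s included.

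All 10 genes passed the filter on low counts. The ligand and its protease were the genes of this group that had less RNA with 5D at p-values under 0.05 before adjustment. Tgfb1 differed by -15.9% (95% interval -22.1% to -9.14%) and Furin by -8.35% (95% interval -14.9% to -1.35%). For the receptors, the SMADs and the repressors no difference passed a threshold in either direction with all 4 libraries. After adjustment over all genes, 0 of the 10 genes passed 0.05 with edgeR. With limma-voom 0 passed as well, and with DESeq2's Wald test 1 did, Tgfb1. Over all tested genes, 3.84% were lower and 3.5% higher (7.34% in either direction) when the unadjusted p-value had to be under 0.05, and 0.068% were lower and 0.0283% higher at an adjusted p-value under 0.05. Against this background, the 10 genes held 2 that were lower and 0 that were higher before adjustment. As the genes were chosen with earlier results of these data known, this is a description and not an independent comparison. The median log2 fold change of the 10 genes was -0.051, with 6 genes below 0 and 4 above, and the median over all tested genes was -0.0016. Without vehicle replicate 1 the median of the 10 genes was 0.0088, with 4 genes below 0. For 2 genes the 5D libraries were both lower than either vehicle library (18.8% of all tested genes) and for 2 both were higher (18.7%), and for 6 genes the groups overlapped. Groups that did not overlap, in either direction, made up 4 of the 10 genes and 37.6% of all tested genes.

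**Figure D1:**
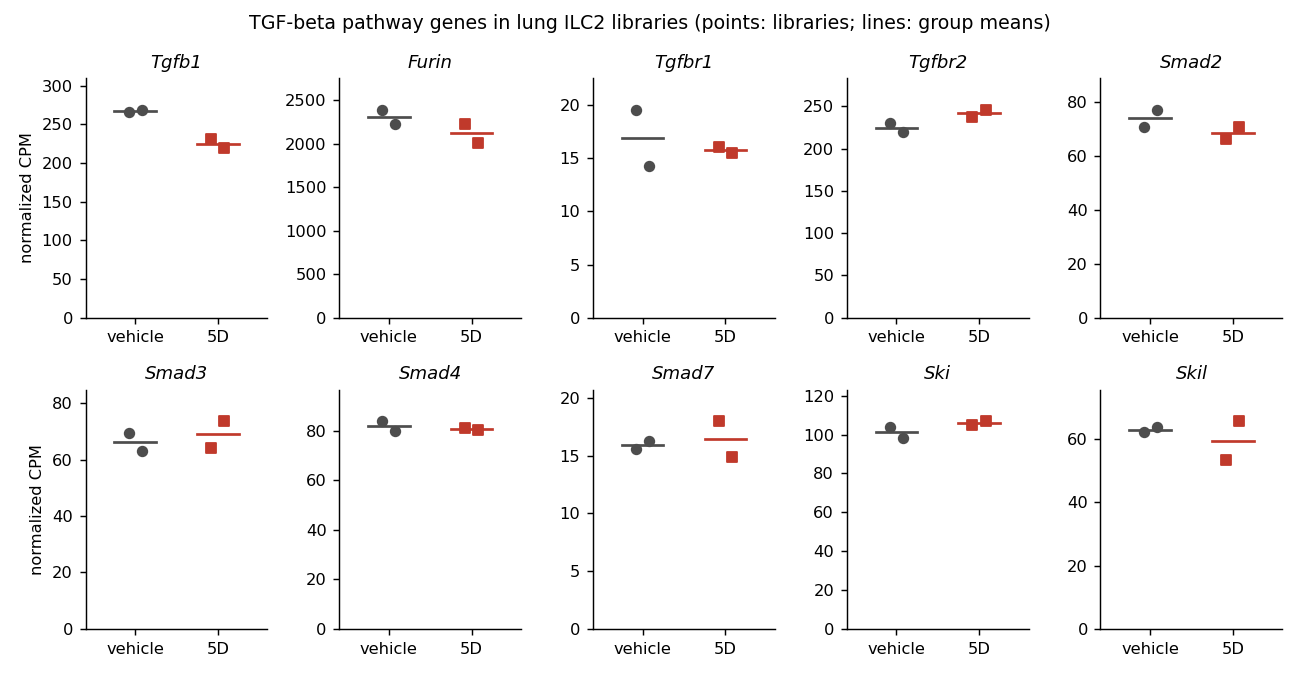
Normalized CPM (vertical axes, each starting at 0) of the 10 genes in the 2 vehicle libraries (grey circles) and the 2 libraries of 5D-treated ILC2s (red squares), with lines at the group means. Both 5D points lie below both vehicle points for Tgfb1 and Furin, and above them for Tgfbr2 and Ski.

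The stretch of 250 bases before the annotated transcript start is shown for the 3 genes with the smallest p-values of the group, Tgfb1, Furin and Tgfbr2, as the control region next to which their transcripts begin. The sequences are from RefSeq on GRCm38.p6 (mm10), and the set of promoter sequences used here held entries for 6 of the 10 genes. Of the Furin entries, the one whose window holds no annotated exon is shown. It precedes an internal transcript start and lies within the gene, 2374 bases downstream of the gene's annotated 5′ end. Capitals mark every match, on either strand, to the SMAD element CAGAC, the NFAT core GGAAA, the GC box GGGCGG or the AP-1 site TGANTCA.
Tgfb1 promoter, chr7:25686752-25687001, plus strand: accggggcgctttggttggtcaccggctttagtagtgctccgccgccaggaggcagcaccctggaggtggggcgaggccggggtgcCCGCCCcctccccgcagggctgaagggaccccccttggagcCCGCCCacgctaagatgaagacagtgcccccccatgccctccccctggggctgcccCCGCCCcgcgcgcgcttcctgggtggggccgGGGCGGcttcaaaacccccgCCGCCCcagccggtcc
Furin internal promoter, chr7:80402813-80403062, minus strand: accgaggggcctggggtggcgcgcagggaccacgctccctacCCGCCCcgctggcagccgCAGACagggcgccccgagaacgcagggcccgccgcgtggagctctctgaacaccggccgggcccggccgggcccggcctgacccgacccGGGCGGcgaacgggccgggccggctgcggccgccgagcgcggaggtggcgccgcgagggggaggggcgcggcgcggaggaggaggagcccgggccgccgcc
Tgfbr2 promoter, chr9:116175364-116175613, minus strand: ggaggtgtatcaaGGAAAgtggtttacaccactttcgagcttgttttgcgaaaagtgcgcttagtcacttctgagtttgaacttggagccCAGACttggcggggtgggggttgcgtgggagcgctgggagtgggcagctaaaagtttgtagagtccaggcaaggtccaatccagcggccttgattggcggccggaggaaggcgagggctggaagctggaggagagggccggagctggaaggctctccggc
In the Tgfb1 window, of which 75.2% was G or C, 5 matches to the GC box were found and 0 to the other motifs. The Furin window was 83.2% G or C and held 2 GC boxes and 1 SMAD element. The Tgfbr2 window was 58.4% G or C, with 1 SMAD element, 1 NFAT core and 0 GC boxes. Among 32851 windows of the same length before the starts of all genes, 32.7% held a GC box, 42.2% a SMAD element, 55.6% an NFAT core and 6.75% an AP-1 site. The median G or C share of these windows was 52.4%. The motif matches are a description of the letters in these windows and say nothing on whether a factor binds there.

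To set the genes beside each other, levels were divided by the length of their annotated exons. Furin was the highest, with 219 to 260 normalized CPM per kb in the 4 libraries, which placed it at percentile 98.8 of the tested genes. Tgfb1 followed with 43.5 to 53.3 per kb and Tgfbr2 with 26.7 to 30.0 per kb. Smad4 (21.5 to 22.6 per kb) and Ski (17.7 to 19.3 per kb) came next. Below them stood Smad3 with 11.4 to 13.3, Smad2 with 7.55 to 8.76 and Skil with 5.48 to 6.76 normalized CPM per kb. The lowest were Smad7 at 3.3 to 3.98 per kb and Tgfbr1 at 2.19 to 3.0 per kb, the latter at percentile 49.5. The order was the same in each of the 4 libraries, and the ranges of neighbours in it did not overlap. The closest neighbours were Smad4 and Ski, 1.17-fold apart. The order of Smad2 and Skil turned when the longest transcript gave the length, at 8.8 and 9.09 per kb. On that length Tgfb1 stood at 95.7 and Furin at 386 per kb.

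**Figure D2:**
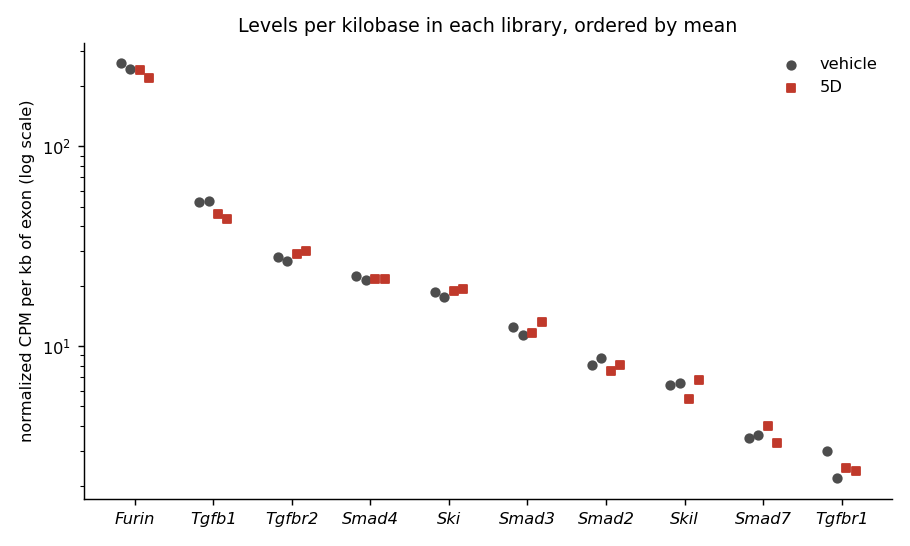
Normalized CPM per kb of exon (log scale) of the 10 genes, ordered by their mean, in the 2 vehicle libraries (grey circles) and the 2 libraries of 5D-treated cells (red squares). Furin lies highest at 219 to 260 and Tgfbr1 lowest at 2.19 to 3.0 normalized CPM per kb.

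Tgfb1 (ENSMUSG00000002603.15, chromosome 7 from 25687002 to 25705077, plus strand) had 266 and 269 normalized CPM with vehicle and 231 and 219 with 5D. Both 5D libraries were low, and the gap between the groups was wider than the distance within either group. The means were 267 ± 1.5 (SD, n = 2) with vehicle and 225 ± 7.92 (SD, n = 2) after 5D. This is a log2 fold change of -0.25 (SE 0.051, 95% interval -0.36 to -0.14), with an unadjusted p-value of 0.000418, place 43 among all tested genes. After Benjamini-Hochberg adjustment the edgeR p-value was 0.171. By DESeq2's Wald test the adjusted p-value was 0.0042, whereas the lowest value with edgeR or limma-voom on all 4 libraries was 0.0602, without a filter on low counts. Without vehicle replicate 1 the adjusted p-value from edgeR was 0.0275, and the log2 fold change stayed between -0.29 and -0.22 whichever library was left out. Each library held 5374 to 6273 counts of the gene. Within a library, the level of Tgfb1 per kb was 1.88 and 1.99 times that of Tgfbr2 with vehicle and 1.58 and 1.45 times with 5D. Per kb of the longest transcript the ratio was 3.64 and 3.86 in vehicle and 2.8 to 3.05 in 5D cells, so that its size depends on the length used.

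Furin (ENSMUSG00000030530.15, chromosome 7 from 80388585 to 80405436, minus strand), the protease that cuts the TGF-beta precursor among many other proproteins, had 2390 and 2228 normalized CPM with vehicle. With 5D it had 2225 and 2007 normalized CPM. The groups did not overlap, but the vehicle library with less and the 5D library with more of it differed by only a small part of the distance within each group. Its log2 fold change was -0.13 (SE 0.048, unadjusted p = 0.0242, adjusted p = 0.598 from edgeR). The log2 fold change was -0.08 without vehicle replicate 1 (unadjusted p = 0.0995 from edgeR) and -0.06 without 5D replicate 2 (unadjusted p = 0.244 from edgeR). Without vehicle replicate 2, it was -0.18 and the adjusted p-value 0.031 from edgeR, and without 5D replicate 1 it was -0.21, with an adjusted p-value of 0.141. An antisense gene, Gm44851, shares 118 exonic bases with Furin, and it had 1655 and 1419 counts with vehicle and 1790 and 1172 with 5D, against at least 44588 counts of Furin in each library. Short stretches of 152 to 200 nt in annotated Furin transcripts are near-identical to transcripts of 68 other genes, so part of its reads may have been shared between genes.

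The type II receptor and the type I receptor differed in level and in precision. Tgfbr2 (chromosome 9 from 116084293 to 116175360) had 230 and 219 normalized CPM with vehicle and 237 and 246 with 5D. Both 5D libraries lay above both vehicle libraries, by a log2 fold change of 0.11 (SE 0.052, unadjusted p = 0.0685, adjusted p = 0.716 from edgeR). Transcripts of 9 other genes share near-identical stretches of 150 to 171 nt with it. Tgfbr1 (chromosome 4 from 47353222 to 47414931) had 19.6 and 14.3 normalized CPM with vehicle and 16.1 and 15.5 with 5D. The vehicle libraries enclosed the 5D libraries and differed from each other by 1.37-fold, the widest distance between libraries of a group among the 10 genes. Its log2 fold change was -0.11 with the widest interval of the group, -0.47 to 0.25 (adjusted p = 0.938 from edgeR), and it turned to 0.14 without vehicle replicate 1. The level of Tgfbr2 per kb was 9.36 and 12.2 times that of Tgfbr1 with vehicle and 11.7 and 12.7 times with 5D.

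Among the SMADs that carry the signal, Smad2 (chromosome 18 from 76241580 to 76310963) had 70.7 and 77.0 normalized CPM with vehicle and 66.3 and 70.7 with 5D. Its groups met at the same value, 70.7, with a log2 fold change of -0.11 (95% interval -0.28 to 0.07). Smad3 (chromosome 9 from 63646767 to 63757994), its close relative that binds DNA itself, had 69.4 and 63.1 with vehicle and 64.2 and 73.7 with 5D. The 5D libraries were spread across the range of the vehicle libraries and beyond, and the log2 fold change was 0.06 (95% interval -0.14 to 0.26). It was -0.01 without vehicle replicate 2 and -0.05 without 5D replicate 2. Smad4 (chromosome 18 from 73639009 to 73703780), the partner shared with the BMP pathway, was the most even, at 83.9 and 79.8 normalized CPM with vehicle and 80.9 and 80.2 with 5D. Its log2 fold change was -0.02 (95% interval -0.18 to 0.13), and 0.01 without vehicle replicate 1. The adjusted p-values of Smad2, Smad3 and Smad4 were 0.841, 0.941 and 0.981 from edgeR. Per kb, Smad3 stood at 1.3 to 1.65 times the level of Smad2, and Smad4 at 1.01 to 1.14 times Smad2 and Smad3 added together, in the 4 libraries.

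For the inhibitors of the pathway, no difference passed a threshold with all 4 libraries. Smad7 (chromosome 18 from 75367529 to 75395935), which is induced by TGF-beta and shuts off its receptor, had 15.6 and 16.3 normalized CPM with vehicle and 18 and 14.9 with 5D. Both vehicle libraries lay between the 5D libraries, at 327 to 488 counts, and the log2 fold change was 0.04 (95% interval -0.28 to 0.36). It was -0.10 without 5D replicate 1. Ski (chromosome 4 from 155154075 to 155222592), a repressor that binds the SMAD complex, had 104 and 98.3 with vehicle and 105 and 107 with 5D. Its groups did not overlap, at a log2 fold change of 0.07 (95% interval -0.07 to 0.21). Skil (chromosome 3 from 31095058 to 31122577), a related repressor that TGF-beta first degrades and then induces, had 62.0 and 63.6 normalized CPM with vehicle and 53.2 and 65.6 with 5D. The 5D libraries enclosed the vehicle libraries and differed 1.23-fold from each other, and the log2 fold change was -0.08 (95% interval -0.3 to 0.14). Without 5D replicate 1 it was 0.06, and without 5D replicate 2 it was -0.24, with an unadjusted p-value of 0.0408 and an adjusted one of 0.847 from edgeR. The adjusted p-values of Smad7, Ski and Skil were 0.982, 0.88 and 0.921 from edgeR. Ski was 2.7 to 3.45 times as high as Skil per kb in the 4 libraries, and 1.88 to 2.41 times per kb of the longest transcript.

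**Figure D3:**
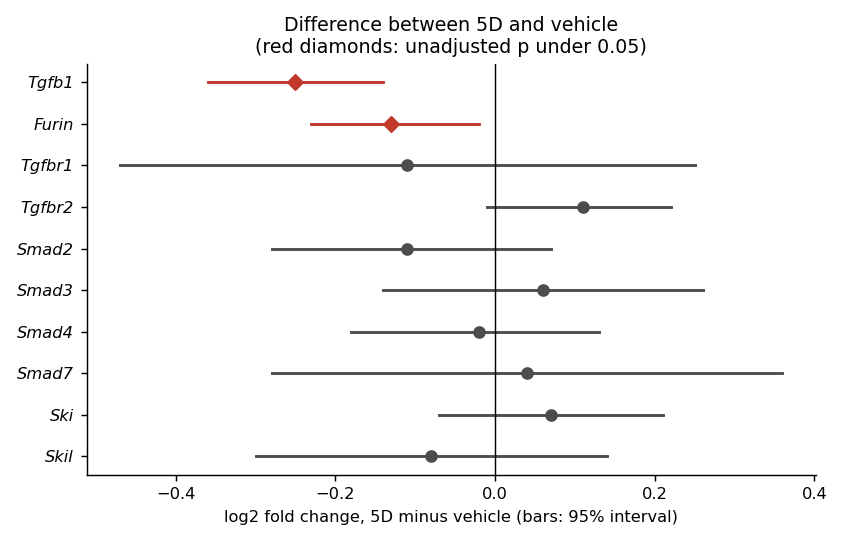
Log2 fold change of 5D against vehicle with its 95% interval from edgeR for the 10 genes. The intervals of Tgfb1 (-0.36 to -0.14) and Furin (-0.23 to -0.02), drawn as red diamonds, lie below 0, and those of the other 8 genes include 0.

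All 10 intervals lay within 0.5 on the log2 scale of no change, the widest bound being that of Tgfbr1 at -0.47. For the genes with an interval that includes 0, the test does not show that their levels were equal in the groups. In bulk RNA, fewer cells that express a gene and less RNA of it per cell cannot be told apart. The markers of ILC2s, such as Gata3, Il1rl1, Il7r, Rora and Icos, were present, and all 14 listed ones summed to 12589 and 12490 normalized CPM with vehicle and 11643 and 12175 with 5D, with the cytokine Il5 alone at 4377 to 4752. Without Il5, Il13 and Areg, the other 11 summed to 7510 and 7430 with vehicle and 6944 and 7297 with 5D. Of the log2 fold changes of the 14 markers, 9 were below 0 and 5 above, with a median of -0.05. At an unadjusted p-value under 0.05, 4 of the 14 were lower and 1 higher, against 3.84% and 3.5% of all tested genes. At an adjusted p-value under 0.05, 0 were lower and 0 higher by edgeR. The study gates lung ILC2s as CD45+, ST2+ and CD127+ cells that lack antigens of T cells, B cells, NK cells, myeloid cells, granulocytes and erythroid cells, which should remove those cells. Among cells that are known to make TGF-beta, the 5 of 8 listed markers of macrophages, monocytes and dendritic cells that were in the table summed to 3.36 and 6.75 normalized CPM with vehicle and 4.64 and 4.65 with 5D. The platelet marker Pf4 was at 0 in the 4 libraries, and 5 platelet and erythroid markers summed to 4.23 to 5.04 normalized CPM, mostly Hba-a1. The 6 of 8 T cell markers in the table summed to 30.1 and 27.9 normalized CPM with vehicle and 29.0 and 29.2 with 5D. Most of this sum was Cd3g, and Cd4 was at 0. Markers of B cells summed to 13.6 to 19.4 normalized CPM, mostly Cd79b (mean 15.5). Those of NK cells and ILC1s summed to 0.405 to 1.94, and those of ILC3s to 21.1 to 31.9, mostly Il22 (mean 25.6). Those of granulocytes and mast cells summed to 2.4 to 5.55, mostly Cpa3 and Fcer1a, with S100a9 and Mcpt4 at 0. Those of epithelium, endothelium and fibroblasts summed to 43.6 to 50.0, mostly Epcam and Pecam1, with Scgb1a1 and Col3a1 at 0. The part of these cells in the difference of Tgfb1 was not tested.

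The rest of the pathway was described by lists of 105 further gene names, Ctgf and Ccn2 among them being the same gene, and 89 genes were tested. At an unadjusted p-value under 0.05, 9 of these were lower and 6 higher, and at an adjusted p-value under 0.05, 1 was lower and 0 higher by edgeR. Over all tested genes the shares were 3.84% and 3.5% before adjustment and 0.068% and 0.0283% after it. Of 18 tested genes of ligands, latency and activation, 1 was lower and 2 higher before adjustment, with a median log2 fold change of -0.01. Tgfb3, another TGF-beta ligand, had 7.75 and 7.9 normalized CPM with vehicle and 11.2 and 9.76 with 5D, a log2 fold change of 0.42 (SE 0.176, adjusted p = 0.638 from edgeR). Its level per kb was 2.31 with vehicle, against 53.0 for Tgfb1. Itgb3, the beta 3 integrin chain, which pairs with the alpha v chain to bind latent TGF-beta, had the highest level of this list. Its log2 fold change was 0.13 (95% interval 0.01 to 0.24, adjusted p = 0.645 from edgeR). Nrros, which anchors latent TGF-beta on myeloid cells, came next in level, with 235 and 224 normalized CPM with vehicle and 231 and 203 with 5D. Mmp2, a matrix protease, had 28 to 47 counts per library and a log2 fold change of -0.89 (adjusted p = 0.659 from edgeR).

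Of 10 other tested receptors, 1 was lower before adjustment and 0 higher, against 3.84% and 3.5% of all tested genes. Their median log2 fold change was -0.11. The lower gene was Acvr1, a type I receptor for BMPs and activins, at 8.09 and 7.15 normalized CPM with vehicle and 5.6 and 5.35 with 5D (log2 fold change -0.48, adjusted p = 0.641 from edgeR). The receptors of the list with the highest levels per kb were the accessory receptor Eng and the activin receptor Acvr2a. Their log2 fold changes were -0.09 (95% interval -0.45 to 0.28) and -0.12 (95% interval -0.42 to 0.17). Smad1 and Smad5, which carry BMP signals, had log2 fold changes of 0.16 and -0.01, and 0 of the 3 other SMADs tested passed a threshold.

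Of 28 regulators and cofactors of the SMADs, 1 was lower and 1 higher before adjustment, against 3.84% and 3.5% of all tested genes. Their median log2 fold change was -0.01. Usp15, a deubiquitinase that sustains TGF-beta receptor signalling, had 112 and 104 normalized CPM with vehicle and 118 and 128 with 5D (log2 fold change 0.19, adjusted p = 0.579 from edgeR). Tgif2, a corepressor of the SMADs, was low, at 49 to 84 counts, with a log2 fold change of -0.73 (adjusted p = 0.647 from edgeR). Fkbp1a, which holds the type I receptor inactive, and the receptor-binding protein Strap had the highest levels per kb of the list. Their log2 fold changes were -0.09 (95% interval -0.19 to 0.0) and -0.01 (95% interval -0.14 to 0.11).

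In the branch that does not use SMADs, 3 of 11 tested genes were lower before adjustment and 0 higher, with a median log2 fold change of -0.05, where 3.84% of all tested genes were lower. Tab2, an adaptor of TAK1, had 57.0 and 50.7 normalized CPM with vehicle and 40.2 and 44.7 with 5D. Its log2 fold change was -0.34 (SE 0.099, unadjusted p = 0.00501, adjusted p = 0.487 from edgeR). Traf6, the ubiquitin ligase upstream of it, had 56.2 and 56.1 with vehicle and 41.6 and 50.7 with 5D, a log2 fold change of -0.28 (adjusted p = 0.566 from edgeR). Mapk14, the kinase p38 alpha, had a log2 fold change of -0.15 (adjusted p = 0.64 from edgeR). Rhoa, the gene of the list with the highest level per kb, had a log2 fold change of 0.0 (95% interval -0.1 to 0.1).

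The genes listed as induced by TGF-beta, in lymphocytes or other cells, were as often below as above 0. Of 28 tested, 14 had a negative and 14 a positive log2 fold change, with a median of 0.01. The list holds 3 of the genes described above, Smad7, Skil and Ski, and 6 further genes of it also stand in other lists. At an unadjusted p-value under 0.05, 3 of the 28 were lower and 3 higher, against 3.84% and 3.5% of all tested genes. Il9, the cytokine that TGF-beta induces in T cells together with IL-4, fell from 11.7 and 7.85 to 3.28 and 3.01 normalized CPM (log2 fold change -1.64, SE 0.246, adjusted p = 0.0314 from edgeR). This call was lost without 5D replicate 1 (adjusted p = 0.0517 from edgeR), without 5D replicate 2 (0.109) and after thinning the libraries to the smallest total (0.0575), and DESeq2 gave the gene no adjusted p-value. The log2 fold change of Il9 lay between -1.89 and -1.32 in these and the other alternatives. Junb, an AP-1 subunit and the gene of the list with the highest level per kb, had 249 and 252 with vehicle and 227 and 220 with 5D, a log2 fold change of -0.17 (adjusted p = 0.517 from edgeR). The remaining 4 genes at the unadjusted threshold were named after their values were seen. Foxp3, the regulatory T cell factor, had 92 and 46 counts with vehicle and 50 and 45 with 5D, with a log2 fold change of -0.88 (adjusted p = 0.624 from edgeR). The higher genes were the adaptor Nedd9 (log2 fold change 0.28), the early TGF-beta response factor Klf10 (0.21) and the cell cycle inhibitor Cdkn2b (1.56), the last at 9 to 50 counts. Their adjusted p-values were 0.383, 0.566 and 0.566 from edgeR. Cdkn1a, second in level, had a log2 fold change of 0.05 (95% interval -0.05 to 0.16).

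**Figure D4:**
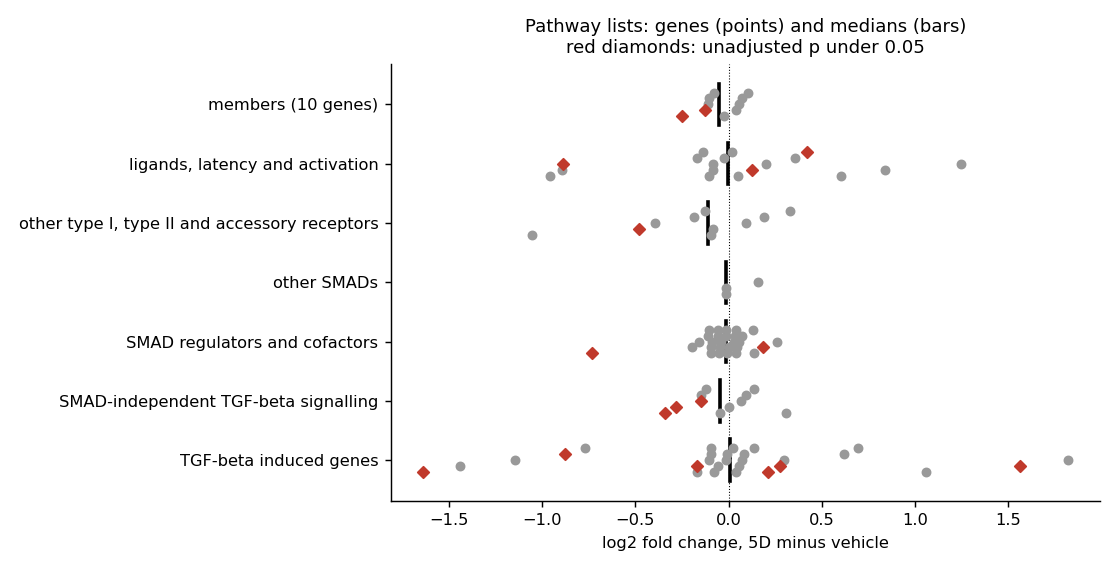
Log2 fold change of 5D against vehicle for the 10 genes and for 6 lists of pathway genes, with 1 point per tested gene and a black bar at each median. Genes that stand in several of these are drawn in each. Red diamonds mark genes at an unadjusted p-value under 0.05, and Il9 lies lowest at -1.64 among the genes listed as induced by TGF-beta.

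The genes whose levels over the 4 libraries were most like those of Tgfb1 were Sec24a, Fam189b and Tet3. Likeness was taken as the largest difference, in any library, between the log2 levels of 2 genes each centred on its mean, and it was 0.0135, 0.0175 and 0.0189 for these genes. Sec24a, a coat protein of vesicles that leave the endoplasmic reticulum, had 30.2 and 30.7 normalized CPM with vehicle and 26.5 and 24.8 with 5D. Fam189b had 31.7 and 32.6 with vehicle and 27.6 and 26.7 with 5D. Tet3, an enzyme that oxidizes methylated cytosine, had 72.9 and 73.4 with vehicle and 63.3 and 59.0 with 5D. With 4 libraries this is a description and says nothing on shared control.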

How the data were processed

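The authors made cDNA with a low-input kit, sequenced it on a NextSeq 500 system, aligned the reads with STAR 2.6.1 to mm10 and the GENCODE M21 annotation, and quantified them in Partek. The amount of input RNA and the culture time differ between the labels and the methods of the study. The deposited values are estimated counts that the authors left unnormalized, of which 50.4% to 53.2% per library were exactly whole, and they were rounded here. Library totals were 20096555 to 28697265 counts.

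The tools were edgeR 4.0.16, DESeq2 1.42.0 and limma 3.58.1, under R 4.3.3. Upper quartile factors were taken over all genes, and genes were kept when their normalized counts averaged 1 or more and added up to 10 or more, following the methods of the study, which left 17650 genes. Partek's Gene Set Analysis was replaced by edgeR's quasi-likelihood test, two-sided, with Benjamini-Hochberg adjustment over these genes and no covariates. The SE of a log2 fold change is its size over the root of the F statistic. The smallest p-value an exact permutation of 2 against 2 libraries allows is 0.333. The code was tested on simulated data.

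The genes and lists were chosen with earlier results of these data known. Named were the 10 genes, and of each list the genes with an adjusted p-value under 0.05 or else up to 3 with the smallest unadjusted p-values under 0.05, plus the 2 with the highest level per kb. Near-identical transcripts were searched with BLAST 2.17.0 (at least 150 nt at 95% identity). All 10 positions equal those of GENCODE M21. Likeness to Tgfb1 was taken over genes with a mean of at least 10 normalized CPM. Alternatives were TMM, DESeq2's size factors, DESeq2, limma-voom, no filter, filterByExpr, no mitochondrially encoded genes, a replicate block, thinning, and leaving out each library in turn.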

Additional observations from a re-analysis of the deposited data

How the results depend on the processing

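Tgfb1 was lower and Furin was lower in each of the 13 alternatives. The count of the 10 genes lower at an adjusted p-value under 0.05 was 0 in the analysis as reported, 1 with DESeq2 and 0 to 1 with a library left out, and the count lower at an unadjusted p-value was 1 to 2 with a library left out (Tgfb1 alone without vehicle replicate 1, and Skil in place of Furin without 5D replicate 2). Over all genes, the 12 lower and 5 higher at an adjusted p-value became 43 and 17 with DESeq2, 23 and 9 with limma-voom, 35 and 11 without a filter, 5 and 2 after thinning, and 19 lower with filterByExpr. With a library left out they ran from 12 to 107 lower and from 3 to 73 higher. A group then holds 1 library, which is assumed to vary like the others. The cause of these moves was not tested.

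Same-numbered libraries did not deviate together (correlation over genes -0.000825), so the numbers are not taken to pair them. The replicate block gave 32 lower and 9 higher genes overall and left the counts of the 10 genes at 0 and 2. Of the further pathway genes, the 1 past an adjusted p-value under 0.05 became 0 with DESeq2, which gave no adjusted p-value for Il9, 0 after thinning and 0 to 2 with a library left out (0 without either 5D library). The 9 lower at an unadjusted p-value became 5 to 9 with a library left out.

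The sign turned when a library was left out for Tgfbr1 (-0.32 to 0.14, above 0 without vehicle replicate 1), Smad3 (-0.05 to 0.15, with -0.01 without vehicle replicate 2 and -0.05 without 5D replicate 2), Smad4 (-0.06 to 0.01, above 0 without vehicle replicate 1), Smad7 (-0.10 to 0.17, below 0 without 5D replicate 1) and Skil (-0.24 to 0.06, above 0 without 5D replicate 1), and in 0 of the other 9 alternatives.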
